A study of Mus musculus with 24 samples.

Results

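Expression of 10 outputs of the core circadian clock, genes whose transcription is driven through E-boxes, was followed in 4 tissues of Glo1+/- and wild-type (WT) mice. They are the clock repressors Per1, Per2, Per3 and Ciart, the PAR bZIP transcription factors Dbp, Tef and Hlf, the nuclear receptors Nr1d1 and Nr1d2, and the ubiquitin protease Usp2. The 10 genes were listed by symbol out of 16593 genes named on the array. For each gene the probe was chosen by its mean brightness over all 24 arrays, out of 19 probes that name the 10 genes. The genotype difference did not enter that choice. The list itself was drawn up with earlier results of the genotype comparison known, and counts over its members are therefore descriptions.

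The data are 24 Illumina bead arrays of total RNA, 3 for each of 8 groups. The mutant animals were heterozygous knockouts of Glo1, the gene of the methylglyoxal-detoxifying enzyme glyoxalase 1, and the comparison asks what differs when 1 Glo1 allele is lost. Gonadal adipose tissue, liver, kidney and aorta were sampled from Glo1+/- mice and from WT mice. All animals were C57BL/6J mice aged 36 weeks, labelled female and fed standard chow, and the knockout line had been re-derived by embryo transfer into a WT female. Neither the hour of tissue collection nor whether equal library numbers mark the same animal is given in the sources used here. Because RNA came from whole tissue, fewer cells of a type and less RNA per cell cannot be told apart, and the p-values measure the spread between 3 tissue samples per group.

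In the mammalian clock the CLOCK and BMAL1 proteins (BMAL1 is the product of Arntl) bind E-boxes and switch on the Period, Cryptochrome and REV-ERB genes. PER and CRY proteins then inhibit CLOCK and BMAL1, while the REV-ERB proteins, products of Nr1d1 and Nr1d2, repress Arntl. DBP, TEF and HLF carry the rhythm to target genes through D-boxes, many of them genes of liver and kidney detoxification. The transcripts of many of these genes normally oscillate over the day.

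The promoters of 9 of the 10 genes, in 11 windows from 250 bases before to 50 bases after a RefSeq transcription start (GRCm38.p6), were searched for motifs on both strands. The motifs were the E-box CACGTG, the related CACGTT, the D-boxes TTATGTAA and TTACGTAA, and the cyclic AMP response element TGACGTCA. An E-box lay in windows of 3 of the 9 genes, Ciart, Per1 and Tef, against 8.09% of all 27025 genes with a window. By window the share was 7.15% of all 32851 promoter windows. The windows shown are those of the genes with an E-box and of Per3, in which the only motif was the D-box. Capitals mark the motifs. The Ciart window is chr3:95882179-95882478 on the minus strand, the Per1 window chr11:69098699-69098998 on the plus strand, the Tef window chr15:81802423-81802722 on the plus strand, and the Per3 window chr4:151044616-151044915 on the minus strand.
Ciart: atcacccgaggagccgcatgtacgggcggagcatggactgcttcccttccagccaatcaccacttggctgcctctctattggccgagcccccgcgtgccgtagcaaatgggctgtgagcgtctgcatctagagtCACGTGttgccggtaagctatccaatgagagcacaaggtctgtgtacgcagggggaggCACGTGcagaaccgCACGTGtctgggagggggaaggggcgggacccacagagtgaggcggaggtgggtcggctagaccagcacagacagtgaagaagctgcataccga
Per1: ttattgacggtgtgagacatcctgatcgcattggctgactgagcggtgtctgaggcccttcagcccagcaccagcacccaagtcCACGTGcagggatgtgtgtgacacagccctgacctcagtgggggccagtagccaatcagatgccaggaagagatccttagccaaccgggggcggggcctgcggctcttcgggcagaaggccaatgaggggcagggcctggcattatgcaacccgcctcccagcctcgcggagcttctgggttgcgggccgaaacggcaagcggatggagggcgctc
Tef: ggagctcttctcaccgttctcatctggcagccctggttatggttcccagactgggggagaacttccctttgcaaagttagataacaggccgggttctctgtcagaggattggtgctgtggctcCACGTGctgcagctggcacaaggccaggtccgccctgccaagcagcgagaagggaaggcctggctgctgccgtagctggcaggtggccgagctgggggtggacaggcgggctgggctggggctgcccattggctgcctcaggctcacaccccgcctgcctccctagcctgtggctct
Per3: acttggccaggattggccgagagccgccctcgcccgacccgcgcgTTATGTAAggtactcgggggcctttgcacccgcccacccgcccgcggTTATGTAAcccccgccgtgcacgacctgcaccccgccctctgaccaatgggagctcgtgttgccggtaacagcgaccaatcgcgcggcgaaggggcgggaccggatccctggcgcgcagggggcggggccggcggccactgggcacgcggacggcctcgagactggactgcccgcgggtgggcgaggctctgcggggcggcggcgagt
Ciart held 3 E-boxes, starting 116, 58 and 44 bases before the start, and 3 or more occurred in 29 windows (0.0883%). The Per1 E-box began 166 bases and the Tef E-box 127 bases before the start. A second Tef window had its E-box 138 bases before the start, and a second Per1 window held none of the motifs. Per3 held 2 copies of TTATGTAA, 205 and 158 bases before the start, where 0.938% of all windows held at least 1. Shorter stretches show the second Tef E-box, the CACGTT of Nr1d1 (read on the other strand as AACGTG) and the response element of Hlf.
Tef, second window: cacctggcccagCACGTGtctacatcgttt
Nr1d1: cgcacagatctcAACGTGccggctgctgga
Hlf: ggtgcgggcccTGACGTCActcttgtcagg
CACGTT was found in 4.68% and TGACGTCA in 1.79% of all windows. The windows of Dbp, Nr1d2 and Usp2 held none of these letters. A match in this short window is a description of sequence only, since known clock elements also lie in introns and farther upstream.

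Glo1 itself, the targeted gene, was lower in Glo1+/- than in WT libraries without overlap in 3 tissues. Its log2 values were 10.92 to 11.55 in Glo1+/- and 12.004 to 12.30 in WT adipose tissue. They were 12.90 to 13.23 in Glo1+/- and 13.85 to 14.16 in WT livers, and 11.31 to 12.06 in Glo1+/- and 12.45 to 12.62 in WT kidneys. In aorta the library labelled Glo1+/- 3 read 11.90 and the library labelled WT 3 read 11.22, which goes against both labels, so aorta results are also given without this pair. The same Glo1+/- aorta library had a brown adipocyte marker mean of 8.50 (5 genes) against 12.83 to 13.26 in the other 5 aortas, an adipocyte mean of 12.67 (6 genes) against 11.32 to 11.57 and a smooth muscle mean of 9.87 (5 genes) against 11.02 to 11.60. WT aorta 3 had a thymocyte mean of 12.36 and WT aorta 2 a skeletal muscle mean of 12.85. Hepatocyte marker means (8 genes) tended to be lower in Glo1+/- adipose tissue, with overlap. They were 10.92, 10.18 and 9.35 in Glo1+/- and 12.07, 11.87 and 10.40 in WT libraries 1 to 3. Apoa1, Ttr, Serpina1a, Cyp3a11 and Ahsg differed there by -2.43 to -1.68 (limma adjusted p = 0.325 to 0.443), each with overlap. Cyp2e1 went the other way (0.26 ± 0.09, adjusted p = 0.379), with every Glo1+/- value above every WT value. The probes of Alb and Fgb lay near the floor in adipose tissue and were dim in liver too. The part of these transcripts in the adipose results was not tested. Both adipose libraries numbered 1 held kidney tubule transcripts, with means of 11.72 in Glo1+/- and 10.66 in WT, and Glo1+/- adipose 3 held epididymis transcripts (14.24). Although the mice are labelled female, Xist, which silences the second X chromosome of females, stayed at 8.10 to 8.25 in all 24 libraries, while the Y-linked Eif2s3y read 10.33 to 11.28. Kidneys had adipocyte means of 8.12 to 8.27 in Glo1+/- and of 8.13, 8.49 and 8.97 in WT libraries 1 to 3, and hepatocyte means of 9.72 to 9.89 in Glo1+/- and of 10.64, 9.78 and 9.63 in WT libraries. Their part in the kidney results was not tested. A leading marker of each labelled tissue was bright in all its libraries, with Adipoq at 14.31 to 14.59 in adipose tissue, Apoa1 at 14.77 to 14.86 in liver, Umod at 14.36 to 14.62 in kidney and Acta2 at 13.61 to 14.79 in aorta. Values of different probes are not comparable as abundances, so each gene is compared only with itself.

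**Figure D1:**
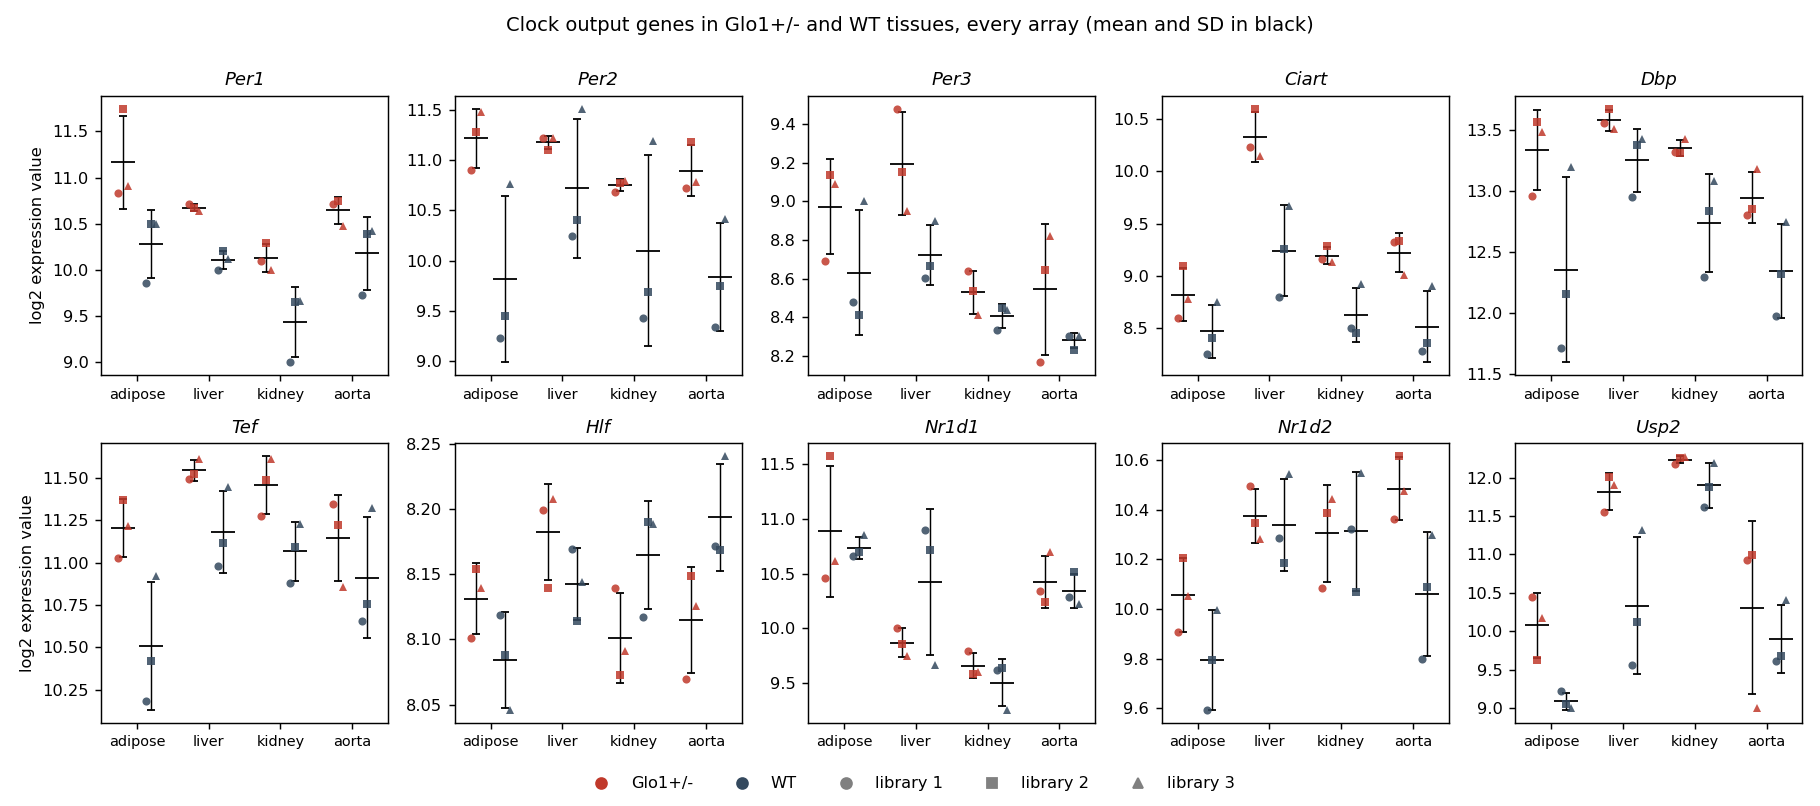
Log2 expression value of each of the 10 clock output genes (1 panel each, own vertical scale) in adipose tissue, liver, kidney and aorta, with Glo1+/- libraries in red left of WT libraries in blue, symbols for library numbers 1 to 3, and group mean ± SD in black. Library 3 is the highest WT point in every tissue for Per2, Ciart, Dbp, Tef and Nr1d2.

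Over the 4 tissues most of the 10 genes were higher in Glo1+/- than in WT libraries. The group mean was higher for 10 genes in adipose tissue, 9 in liver, 8 in kidney and 9 in aorta. The median log2 difference of the 10 was 0.52, 0.41, 0.36 and 0.42 in that order of tissues, beside a median over all 25697 probes between -0.01 and 0.00 in each. A gene is said to have passed at a limma adjusted p under 0.05 over all probes of a tissue. In liver 3 passed (Per1, Ciart and Usp2), against 0.658% of all probes, and 1 in kidney (Ciart), against 0.381%. Smooth muscle markers moved with genotype in liver, with means of 8.36, 8.47 and 8.45 in Glo1+/- and 8.68, 8.64 and 8.81 in WT livers. Of the marker genes, Acta2 (-0.69, adjusted p = 0.029) and Alb (-0.67, adjusted p = 0.014) fell in Glo1+/- liver. The other hepatocyte markers differed there by -0.11 (Fgb) to 0.06 (Cyp3a11) without passing, and the Alb probe was dim. The part of Acta2 and Alb in the liver results was not tested. In adipose tissue 0 of the 10 passed in limma, although 5 had an unadjusted p under 0.05, and 0.00389% of probes, a single one, was called. In aorta 0 of 10 passed, again with 5 at an unadjusted p under 0.05, and 0% of probes was called. Of all 25697 probes, 2927 had an unadjusted p under 0.05 in adipose tissue, 2975 in liver, 2452 in kidney and 917 in aorta.

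The libraries of both genotypes separated more often than they passed the test. Every Glo1+/- value lay above every WT value for 4 genes in adipose tissue (8.02% of probes did so), 6 in liver (7.77%), 4 in kidney (7.47%) and 5 in aorta (5.61%). The opposite, every Glo1+/- value below every WT value, held for 0 genes in adipose tissue (9.48% of probes), 0 in liver (9.79%), 0 in kidney (7.96%) and 1 in aorta (4.5%), the last being Hlf. Per1 was the one gene that separated in all 4 tissues, although its second probe overlapped in aorta.

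**Figure D2:**
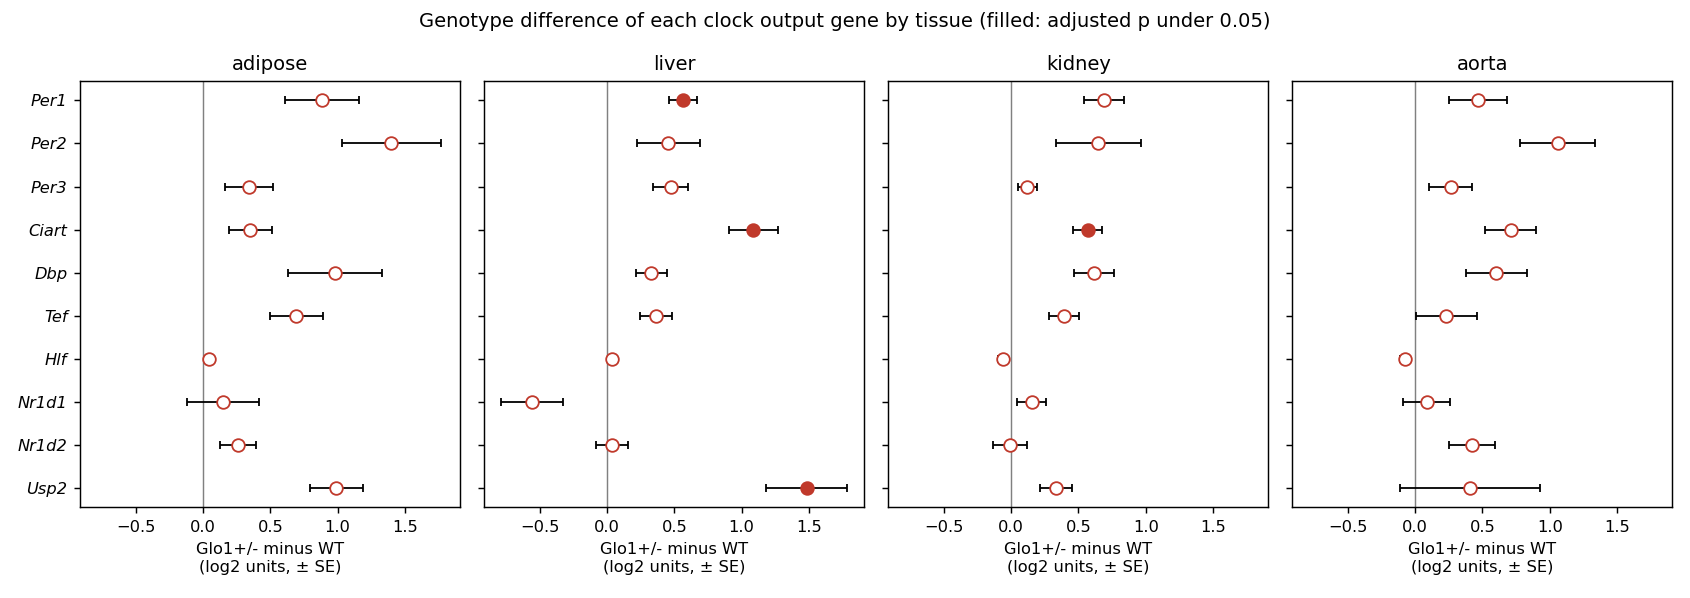
Difference between Glo1+/- and WT means in log2 units (horizontal axis, bars ± SE from limma) for each clock output gene, in 1 panel per tissue, with filled points for adjusted p under 0.05. Per1, Ciart and Usp2 in liver and Ciart in kidney are filled, and Nr1d1 in liver lies farthest left, at -0.56.

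Per1, the Period gene that also answers acutely to light and to glucocorticoids, rose in liver. Its log2 values were 10.71, 10.67 and 10.64 in Glo1+/- livers 1 to 3 and 10.00, 10.20 and 10.12 in WT livers, a difference of 0.57 ± 0.10 (± SE from limma, adjusted p = 0.023) or 1.48-fold. The WT livers lay close together and well below the Glo1+/- livers, and the difference passed in 4 of 11 alternative fits, those that left a single library on 1 side of a slide not counted for any gene. Kidney gave 10.10, 10.30 and 10.00 in Glo1+/- and 9.001, 9.65 and 9.67 in WT libraries, a difference of 0.69 ± 0.15 (adjusted p = 0.086). The second Per1 probe gave 0.44 ± 0.09 in kidney and passed there (adjusted p = 0.048), and gave 0.40 ± 0.09 in liver (adjusted p = 0.071), and both probes separated the genotypes in both organs. In adipose tissue Per1 read 10.83, 11.75 and 10.91 in Glo1+/- against 9.86, 10.49 and 10.49 in WT libraries (0.88 ± 0.27, adjusted p = 0.346). In aorta it read 10.71, 10.75 and 10.48 in Glo1+/- against 9.73, 10.39 and 10.42 in WT libraries (0.47 ± 0.22, adjusted p = 0.948). WT library 1 was the lowest of the WT values in every tissue.

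Per2, the Period protein that links the clock to metabolism, was higher on average in Glo1+/- libraries of every tissue and passed in none of the 4. Adipose values were 10.90, 11.28 and 11.48 in Glo1+/- against 9.23, 9.45 and 10.76 in WT libraries (1.40 ± 0.37, adjusted p = 0.302). Aorta gave 10.72, 11.18 and 10.78 in Glo1+/- against 9.35, 9.75 and 10.41 in WT libraries (1.06 ± 0.28, adjusted p = 0.948). The genotypes did not overlap in either tissue, and WT library 3 stood well above the other WT libraries. In liver the values were 11.22, 11.10 and 11.22 in Glo1+/- against 10.25, 10.40 and 11.51 in WT libraries (0.46 ± 0.23, adjusted p = 0.486). In kidney they were 10.68, 10.78 and 10.80 in Glo1+/- against 9.43, 9.68 and 11.19 in WT libraries (0.65 ± 0.31, adjusted p = 0.548). In both organs WT library 3 lay above all 3 Glo1+/- libraries. The SD of the WT group (0.69 in liver, 0.95 in kidney) was far above that of the Glo1+/- group (0.07 in liver, 0.06 in kidney). A second bright Per2 probe gave differences of 1.17, 0.48, 0.62 and 0.96 in adipose tissue, liver, kidney and aorta, while the third stayed between 8.09 and 8.30 throughout.

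Per3, another Period gene, had small differences on a dim probe. It separated in liver, with 9.48, 9.15 and 8.95 in Glo1+/- against 8.60, 8.67 and 8.90 in WT libraries (0.47 ± 0.13, adjusted p = 0.137). Means were 8.97 ± 0.25 in Glo1+/- and 8.63 ± 0.32 in WT adipose tissue, 8.53 ± 0.11 in Glo1+/- and 8.41 ± 0.06 in WT kidney, and 8.54 ± 0.34 in Glo1+/- and 8.28 ± 0.04 in WT aorta (SD, n = 3 each), with overlap in each.

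Ciart, also called CHRONO, a repressor that binds CLOCK and BMAL1 at E-boxes, rose in liver and in kidney. Liver values were 10.23, 10.60 and 10.15 in Glo1+/- against 8.80, 9.26 and 9.67 in WT libraries, a difference of 1.09 ± 0.18 or 2.12-fold (adjusted p = 0.017). The WT livers were spread widely and still lay below all Glo1+/- livers, and the liver difference passed in 6 of 11 alternative fits. Kidney values were 9.16, 9.29 and 9.13 in Glo1+/- against 8.50, 8.46 and 8.92 in WT libraries (0.57 ± 0.11, adjusted p = 0.044). This kidney call held in 3 of 11 alternative fits and was lost without a trend in the prior (adjusted p = 0.172), in the fit of all 24 arrays (adjusted p = 0.673) and without any 1 library other than WT 3. A second Ciart probe gave 1.21 ± 0.19 in liver (adjusted p = 0.014) and 0.44 ± 0.13 in kidney, where it did not pass (adjusted p = 0.220) and the libraries overlapped. In aorta Ciart read 9.32, 9.34 and 9.01 in Glo1+/- against 8.28, 8.35 and 8.90 in WT libraries (0.71 ± 0.19, adjusted p = 0.948). In adipose tissue, with means of 8.82 ± 0.25 in Glo1+/- and 8.47 ± 0.25 in WT libraries (SD, n = 3 each), the libraries overlapped.

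Dbp, the best known PAR bZIP activator of D-box genes, was higher in Glo1+/- libraries in all 4 tissues and passed in none. Kidney values were 13.32, 13.31 and 13.42 in Glo1+/- against 12.29, 12.84 and 13.08 in WT libraries (0.61 ± 0.15, adjusted p = 0.133). Liver values were 13.56, 13.68 and 13.51 in Glo1+/- against 12.95, 13.38 and 13.43 in WT libraries (0.33 ± 0.12, adjusted p = 0.271). Both organs separated by genotype with WT library 3 closest to the Glo1+/- group. Adipose tissue gave 12.96, 13.56 and 13.48 in Glo1+/- against 11.71, 12.15 and 13.20 in WT libraries (0.98 ± 0.35, adjusted p = 0.385), and aorta 12.80, 12.85 and 13.18 in Glo1+/- against 11.97, 12.32 and 12.74 in WT libraries (0.60 ± 0.23, adjusted p = 0.948). In adipose tissue WT library 3 lay above Glo1+/- library 1.

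Tef, a second PAR bZIP activator, separated in adipose tissue, liver and kidney. Adipose values were 11.03, 11.37 and 11.21 in Glo1+/- against 10.18, 10.42 and 10.92 in WT libraries (0.69 ± 0.19, adjusted p = 0.318). Liver gave 11.49, 11.52 and 11.61 in Glo1+/- against 10.98, 11.12 and 11.44 in WT libraries (0.36 ± 0.12, adjusted p = 0.241), and kidney 11.28, 11.48 and 11.61 in Glo1+/- against 10.88, 11.09 and 11.23 in WT libraries (0.39 ± 0.11, adjusted p = 0.233). In each, WT library 3 was the WT value nearest the Glo1+/- libraries. In aorta WT library 3 (11.32) lay within the Glo1+/- range of 10.86 to 11.35. Hlf, the remaining PAR bZIP factor, could not be followed: its single probe stayed between 8.05 and 8.24 in all 24 libraries, below the median probe of every tissue, and its aorta difference was -0.08 ± 0.03.

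Nr1d1 (REV-ERB alpha) went against the rest of the list in liver. Its liver values were 10.01, 9.86 and 9.75 in Glo1+/- against 10.90, 10.72 and 9.67 in WT libraries (-0.56 ± 0.23, adjusted p = 0.358), so that WT library 3 again sat with the Glo1+/- libraries, here at the low end. The second Nr1d1 probe gave -0.46 ± 0.19 there. Means were 10.89 ± 0.60 in Glo1+/- and 10.74 ± 0.10 in WT adipose tissue, 9.66 ± 0.12 in Glo1+/- and 9.51 ± 0.22 in WT kidney, and 10.43 ± 0.24 in Glo1+/- and 10.34 ± 0.15 in WT aorta (SD, n = 3 each), all overlapping. Nr1d2 (REV-ERB beta), its partner in repressing Arntl, separated in aorta alone, with 10.36, 10.62 and 10.48 in Glo1+/- against 9.80, 10.09 and 10.30 in WT libraries (0.42 ± 0.17, adjusted p = 0.948). Its differences were 0.26 ± 0.14 in adipose tissue, 0.04 ± 0.12 in liver and -0.01 ± 0.13 in kidney.

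Usp2, a deubiquitinating enzyme known to act on clock proteins, had the largest difference of the 10 genes in liver. Liver values were 11.55, 12.003 and 11.90 in Glo1+/- against 9.57, 10.12 and 11.32 in WT libraries, a difference of 1.48 ± 0.30 or 2.79-fold (adjusted p = 0.041). WT liver 3 stood far above the other WT livers and just under the Glo1+/- livers. The call held in 2 of 11 alternative fits and was lost without a trend in the prior (adjusted p = 0.246). In adipose tissue Usp2 read 10.45, 9.62 and 10.17 in Glo1+/- against 9.22, 9.05 and 9.005 in WT libraries (0.99 ± 0.20, adjusted p = 0.241). There WT library 3 was the lowest value. Kidney tubule marker means in adipose tissue were 11.72, 8.35 and 8.97 in Glo1+/- and 10.66, 8.83 and 8.34 in WT libraries 1 to 3. Adipose Usp2 had the same order within each genotype, and the part of kidney transcripts in its difference was not tested. In kidney itself Usp2 overlapped narrowly, with 12.18, 12.26 and 12.26 in Glo1+/- against 11.62, 11.88 and 12.19 in WT libraries (0.33 ± 0.12, adjusted p = 0.370). Aorta gave 10.93, 10.99 and 9.01 in Glo1+/- against 9.61, 9.68 and 10.41 in WT libraries (0.41 ± 0.52, adjusted p = 0.948), the value of 9.01 being that of the library without brown adipocyte markers. Both further Usp2 probes were dim (8.10 to 8.78) and gave 0.24 ± 0.08 and 0.23 ± 0.08 in liver.

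The WT libraries differed among themselves in the same way in every tissue. The 10 genes were averaged in each library, each taken as its deviation from the tissue mean. In adipose tissue the Glo1+/- libraries ran from 0.11 to 0.49 log2 units, and WT libraries 1, 2 and 3 stood at -0.55, -0.38 and 0.02. Livers ran from 0.16 to 0.25 in Glo1+/- and stood at -0.41, -0.24 and 0.01 in WT. Kidneys ran from 0.14 to 0.20 in Glo1+/- and stood at -0.39, -0.20 and 0.07 in WT, and aortas from 0.08 to 0.33 in Glo1+/- and at -0.45, -0.24 and 0.06 in WT. WT library 1 was thus lowest and WT library 3 highest of the WT libraries in all 4 tissues, and WT library 3 stayed below all Glo1+/- libraries of its tissue. Per2, Ciart, Dbp, Tef and Nr1d2 had their highest WT value in library 3 in all 4 tissues, as 2.11% of probes did. Per1, Per2, Dbp and Tef had their lowest WT value in library 1 in all 4, as 1.57% of probes did. Over all pairs of gene and tissue, WT library 3 was highest in 29 of 40, against 37.1% of the pairs of all probes, and WT library 1 lowest in 28 of 40, against 32.9%. Glo1 in WT library 3 lay above that of all Glo1+/- libraries in 3 tissues, aorta being the exception. Adipose WT libraries shared 1 slide, as did those of kidney and of aorta, and in liver WT 1 and 2 lay on another slide than WT 3 and the Glo1+/- libraries.

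**Figure D3:**
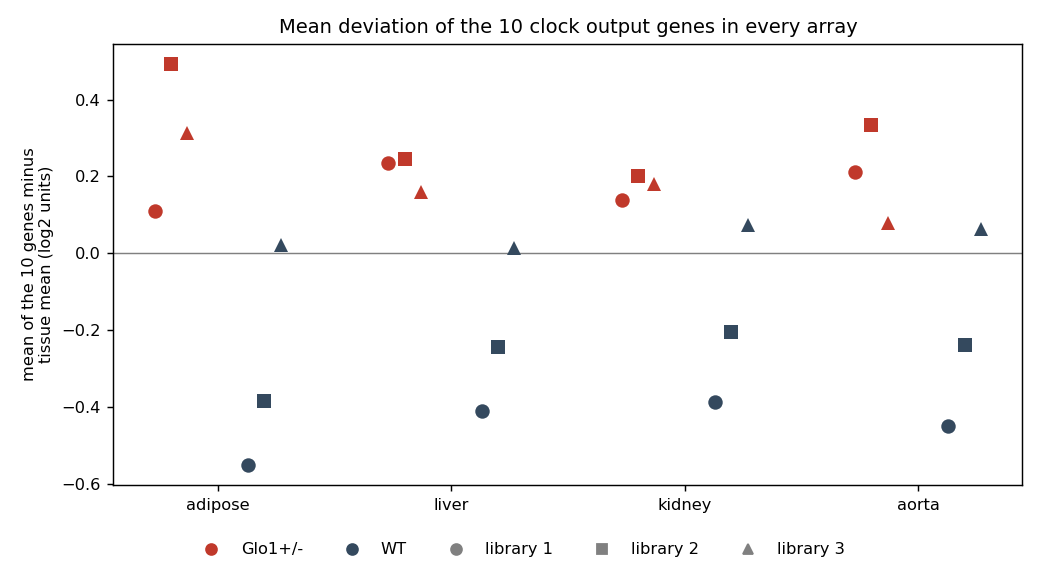
Mean of the 10 clock output genes, each as its deviation from its tissue mean (vertical axis, log2 units), in each of the 24 libraries, with Glo1+/- in red left of WT in blue and symbols for the library number. In each tissue WT library 1 is lowest (-0.55 to -0.39), WT library 3 is highest among WT (0.01 to 0.07), and all Glo1+/- libraries lie above it.

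The number of the 10 genes that passed changed when single libraries were left out. In liver 8 of the 10 genes passed without WT 3 (Per1, Per2, Per3, Ciart, Dbp, Tef, Usp2 higher and Nr1d1 lower in Glo1+/-), with 2.7% of probes called, against 3 genes and 0.658% with it. Without WT 3 the remaining WT livers lay on another slide than the Glo1+/- livers, so genotype and slide cannot be told apart in this count. Without WT liver 1 the count was 1 (Ciart), and without WT 2 or any 1 of the Glo1+/- livers it was 0. In kidney 4 passed without WT 3 (Per1, Per2, Ciart and Dbp; 0.42% of probes) and 0 without any 1 of the other 5 libraries. In adipose tissue 2 passed without WT 3 (Per2, 1.87, adjusted p = 0.026, and Dbp, 1.40, adjusted p = 0.046), with 0.685% of probes called, and 0 without any 1 of the others. In aorta 0 passed without any 1 library, and leaving out the pair whose Glo1 goes against the labels gave 5 (Per2 1.40, Ciart 1.01, Dbp 0.68, Tef 0.58 and Usp2 1.31, adjusted p = 3.13e-04 to 0.020), with 1.36% of probes called, and each group then held 2 libraries. WT liver 3 was the 1 WT liver on the slide of the Glo1+/- livers, so the liver difference with the slide as a block is that from this single library. It was 0.55 for Per1, 0.66 for Ciart, 0.50 for Usp2, -0.34 for Per2 and 0.21 for Nr1d1, with no spread among WT livers behind it. In kidney the blocked difference rests on Glo1+/- kidney 1 alone, the 1 mutant on the slide of the WT kidneys, and was 0.54 for Ciart.

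A fit of all 24 arrays gave the mean difference over the 4 tissues. It took the arrays as independent, although libraries of equal number may come from the same animal. If they do, its p-values may be too small, since the mean of the 10 genes ordered WT libraries alike in all 4 tissues. Ciart (0.68 ± 0.10, adjusted p = 0.0036) and Per1 (0.65 ± 0.12, adjusted p = 0.012) passed and were higher in Glo1+/-, 2 of 10 genes against 0.175% of probes called higher. In all, 8 of the 10 had an unadjusted p under 0.05. The share of all probes at that level was not counted for this fit, so nothing is read from this count. Next stood Dbp (0.63 ± 0.14, adjusted p = 0.057), Tef (0.42 ± 0.10, adjusted p = 0.071), Per2 (0.89 ± 0.20, adjusted p = 0.074) and Usp2 (0.80 ± 0.21, adjusted p = 0.122), while Nr1d1 was at -0.04 ± 0.13. Leaving out WT library 3 of every tissue, a choice made after seeing the data, gave 7 genes (1.11% of probes), and leaving out WT 1, WT 2 or Glo1+/- 2 of every tissue gave 0. Without Glo1+/- 1 the count was 1 (Ciart), and without Glo1+/- 3 it was 3. In the fit without WT library 3, genotype and slide coincided in liver. With the slide as a block, where liver and kidney each contribute a single library on 1 side, Per1 was at 0.64 (adjusted p = 0.071). The interaction test in limma, which asks whether the difference varies between tissues, called 0 of the 10 genes, against 0.28% of probes. In that test 1 gene, Hlf, had an unadjusted p under 0.05, and the share of all probes at that level was not counted.

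The order of the tissues was taken from the WT libraries. WT adipose, kidney and aorta libraries lay on different slides, and the aorta slide held no WT liver. Tissue and slide cannot be told apart in those pairs. The WT aortas also held brown adipocyte, skeletal muscle or thymocyte transcripts, and WT adipose libraries hepatocyte or kidney tubule transcripts. Their part in the order was not tested. By pair of tissues the number of the 10 genes that differed was 5 between adipose tissue and liver (31.4% of probes), 6 between adipose tissue and kidney (28.6%), 1 between adipose tissue and aorta (19.7%), 4 between liver and kidney (25.5%), 3 between liver and aorta (30.6%) and 3 between kidney and aorta (27.1%). Usp2 was highest in kidney (11.90 ± 0.29, SD, n = 3), above liver (10.34 ± 0.90, adjusted p = 0.0064), aorta (9.90 ± 0.44) and adipose tissue (9.09 ± 0.11). Ciart was highest in liver (9.24 ± 0.44), above kidney (8.63 ± 0.26, adjusted p = 0.029), with kidney, aorta (8.51 ± 0.34) and adipose tissue (8.47 ± 0.25) not told apart. Per1 and Nr1d1 were highest in adipose tissue and lowest in kidney. Per1 was at 9.44 ± 0.38 there against 10.11 ± 0.10 in liver, its nearest neighbour (adjusted p = 0.036), and Nr1d1 at 9.51 ± 0.22 against 10.34 ± 0.15 in aorta (adjusted p = 0.019). Dbp, Tef, Per2, Per3 and Nr1d2 were highest in liver, and no neighbours in their orders differed beyond their spread. Hlf, near the floor, counted among the differing genes between adipose tissue and kidney (-0.08) and between adipose tissue and aorta (-0.11). Dbp descended over liver (13.25 ± 0.26), kidney (12.74 ± 0.40), adipose tissue (12.35 ± 0.76) and aorta (12.34 ± 0.39).

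The activators and opposing-phase genes, 11 of 12 with a probe, include the genes that normally peak when the E-box outputs are low. The group mean was higher in Glo1+/- for 5, 3, 6 and 7 of the 11 in adipose tissue, liver, kidney and aorta. In limma 0 of them were called in adipose tissue, kidney or aorta. At an unadjusted p under 0.05 were 2, 2 and 1, beside 2927, 2452 and 917 of all 25697 probes. In liver 1 was called, against 0.658% of all probes: Nfil3, a repressor that competes with DBP at D-boxes, fell. Nfil3 read 10.34, 10.07 and 10.52 in Glo1+/- against 11.15, 11.32 and 10.77 in WT livers (-0.77 ± 0.15, adjusted p = 0.032). Arntl, chosen for display after its values were seen, read 8.34, 8.21 and 8.25 in Glo1+/- against 9.05, 8.82 and 8.26 in WT adipose tissue (-0.44 ± 0.18, adjusted p = 0.415), and 8.18, 8.25 and 8.17 in Glo1+/- against 8.63, 8.55 and 8.19 in WT livers (-0.26 ± 0.10, adjusted p = 0.291). In both tissues WT library 3 matched the Glo1+/- libraries on this dim probe. In aorta Arntl read 8.19, 8.34 and 8.39 in Glo1+/- against 8.84, 8.68 and 8.74 in WT libraries (-0.45 ± 0.10, adjusted p = 0.948), without overlap. In kidney it overlapped (-0.10 ± 0.07, adjusted p = 0.693). Clock, the partner of BMAL1, was also chosen after its values were seen. It separated downward in adipose tissue (-0.43 ± 0.14, adjusted p = 0.356), liver (-0.33 ± 0.10, adjusted p = 0.221) and kidney (-0.37 ± 0.09, adjusted p = 0.132). Clock overlapped in aorta (0.01 ± 0.15, adjusted p = 0.996). For this gene WT library 3 stayed with the other WT libraries in liver and kidney. In adipose tissue it read 11.31, between WT 2 at 11.55 and the highest Glo1+/- value of 11.18, and nearer to that value. Other genes of the list separated upward without being called, Cry2 in liver (0.24 ± 0.10) and aorta (0.20 ± 0.12) and Rora in kidney (0.19 ± 0.09) and aorta (0.29 ± 0.15). The 7 of 8 kinase and turnover genes with a probe had 0 called by limma in any tissue. At an unadjusted p under 0.05 were 1, 2, 1 and 0 in adipose tissue, liver, kidney and aorta. Of all 25697 probes, 2927, 2975, 2452 and 917 were, in the same order. Of the genes repressed by REV-ERB proteins, 5 of 7 had a probe, and Nfil3 in liver was the 1 called.

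Targets of DBP, TEF and HLF were called in liver alone, 2 of the 5 of 7 listed genes with a probe, against 0.658% of all probes. Alas1, the enzyme that starts haem synthesis, read 14.51, 14.55 and 14.39 in Glo1+/- against 12.84, 13.28 and 14.16 in WT livers (1.06 ± 0.22, adjusted p = 0.048). Its WT libraries had the same order as those of Usp2. Nr1i3, the xenobiotic receptor CAR, read 12.07, 11.95 and 12.01 in Glo1+/- against 10.82, 11.22 and 11.05 in WT livers (0.98 ± 0.11, adjusted p = 0.0031), with WT library 3 between the other WT values. All 5 were higher in Glo1+/- liver, as 45.8% of all probes were, with a median difference of 0.49. Of them Cyp2a5, Cyp7a1 and Pdxk overlapped, and Pdxk lay near the floor (0.01 ± 0.04). In adipose tissue, kidney and aorta 2, 3 and 4 of the 5 were higher in Glo1+/-, beside 49.8%, 50% and 52.2% of all probes. Their median differences there were -0.11, 0.03 and 0.02. Among 7 of 8 other clock-controlled outputs with a probe, 1 was called, in liver, against 0.658% of all probes. It was the liver glycogen synthase Gys2, at 10.65, 10.80 and 10.74 in Glo1+/- against 10.04, 10.33 and 9.98 in WT livers (0.62 ± 0.11, adjusted p = 0.026). Of the 11 of 12 glucocorticoid-induced genes with a probe, 0 were called in any tissue by limma, with 5, 6, 5 and 2 at an unadjusted p under 0.05 in adipose tissue, liver, kidney and aorta. Of all 25697 probes, 2927, 2975, 2452 and 917 were at that level, in the same order. The group mean was higher in Glo1+/- for 6, 6, 10 and 6 of the 11, beside 49.8%, 45.8%, 50% and 52.2% of all probes.

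**Figure D4:**
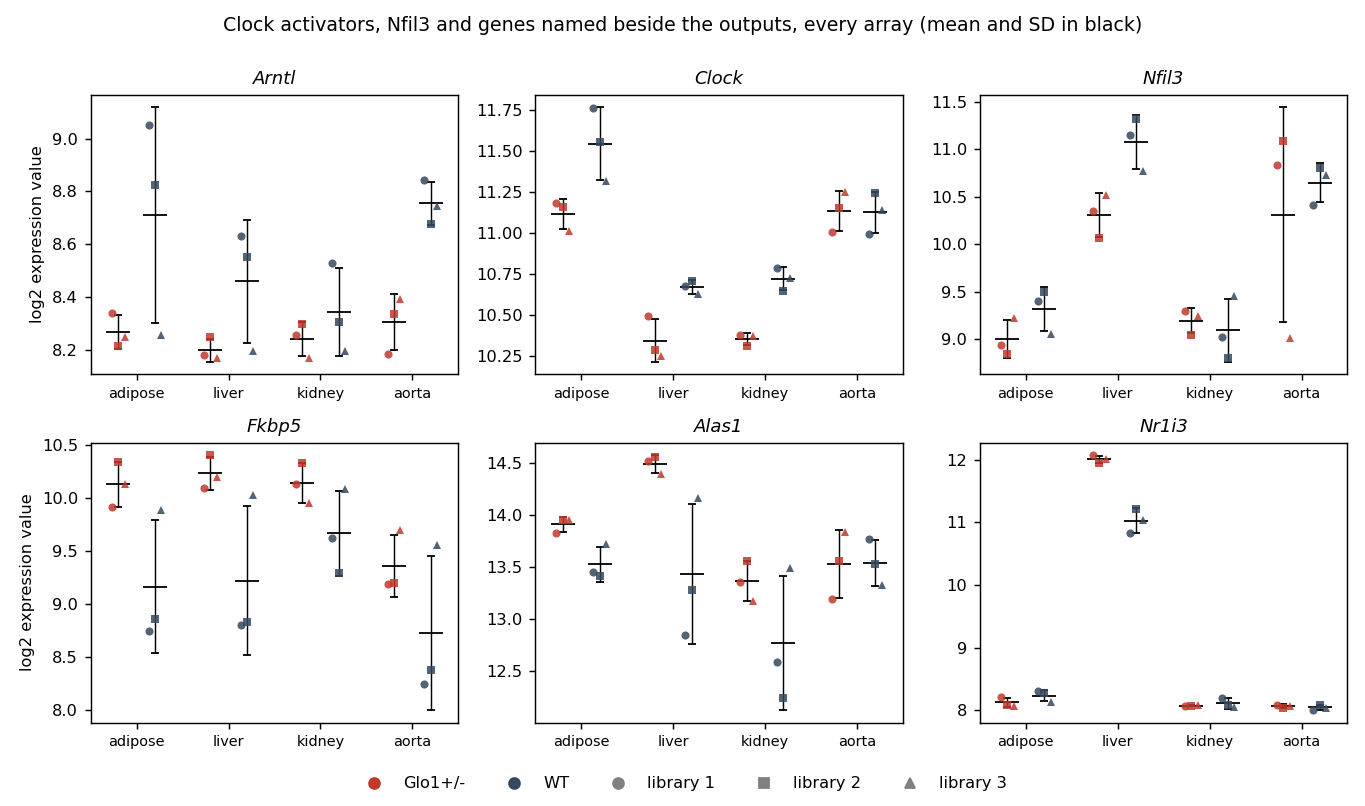
Log2 expression value of the clock activators Arntl and Clock, the D-box repressor Nfil3, the glucocorticoid-induced Fkbp5, and the PAR bZIP targets Alas1 and Nr1i3 (1 panel each, own vertical scale) by tissue, with Glo1+/- libraries in red left of WT libraries in blue, symbols for the library number and mean ± SD in black. WT library 3 (triangles) lies near the Glo1+/- libraries for Arntl in adipose tissue and liver and for Fkbp5, and with the other WT libraries for Clock in liver and kidney and for Nr1i3 in liver.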

How the data were processed

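The authors deposited log2-scale expression values for 25697 probes on 24 Illumina bead arrays, made with lumi 2.32.0 per the submitters' processing notes; how they were background-corrected and normalized is not stated in the sources used here, and a floor near 8 compresses dim probes. Array medians ran from 8.22 to 8.25, and the number of arrays limits the precision. Gene names came from the platform annotation, which names 1 gene for 23978 probes. Every member is named by its probe with the highest mean over all arrays, and from the other gene lists the genes called in a tissue. The members and lists were chosen with earlier results of these data known. Each tissue was fitted on its own 6 arrays with limma 3.58.1 (R 4.3.3; lmFit, eBayes with a trend on the mean), two-sided, with Benjamini-Hochberg adjustment over all probes and a call at an adjusted p under 0.05. A fit of 8 group means over 24 arrays, taken as independent, gave mean, interaction and tissue contrasts. The procedure was tested on simulated data. Deviations from group means correlated across probes between same-numbered Glo1+/- and WT libraries at 0.17 to 0.68 in adipose tissue. Libraries of different numbers gave -0.57 to 0.30 there, which overlaps, so pairing by number is not settled. With the replicate block 49 probes and 0 of the 10 genes were called in adipose tissue. No filter was applied before testing. Alternatives covered the prior, normalization, dim probes, blocks, slides, other probes and omitted libraries.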

Additional observations from a re-analysis of the deposited data

How the results depend on the processing

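Quantile normalization changed no count of the 10 genes by over 1.5 times. Without a trend in the prior, limma called 4 probes and 0 of the 10 genes in liver, 17 and 0 in kidney, 113 probes for the mean over tissues and 133 for the interaction. Keeping only probes above the tissue median left 0 probes in adipose tissue and 0 of the 10 genes in kidney. In the fit of all 24 arrays 164 probes were called in adipose tissue, 1 of the 10 genes in liver, 20 probes and 0 of the 10 genes in kidney and 18 probes in aorta. With the slide as a block, counts were 1379 probes in liver, 20 probes and 0 of the 10 genes in kidney, 1 of the 10 genes for the mean (Ciart) and 138 probes for the interaction, and within slide 2 they were 1687 probes in liver and 10 probes with 0 of the 10 genes in kidney. The replicate block gave 49 probes in adipose tissue, 289 in liver, and 3 of the 10 genes in kidney (Per1 and Dbp besides Ciart). It changed no other call of the 10 genes. The correlation check did not pair libraries by number in liver (0.05 to 0.23), kidney (-0.01 to 0.06) or aorta (-0.12 to 0.11). In adipose tissue that check left pairing unsettled. The slide fits rest on WT liver 3 alone as the WT side in liver and on Glo1+/- kidney 1 alone as the mutant side in kidney, and a lone library is assumed to vary like the other group. Omitting both adipose libraries numbered 1 left 0 probes. Omitting both aorta libraries numbered 3 gave 349 probes and 5 of the 10 genes in aorta, 749 and 6 for the mean and 534 probes for the interaction, and omitting all aortas gave 374 and 5 for the mean and 220 probes for the interaction. Leaving out 1 library gave 0 to 176 probes and 0 to 2 of the 10 genes in adipose tissue, 22 to 695 and 0 to 8 in liver, 19 to 108 and 0 to 4 in kidney, and 0 for both in aorta. The highest liver counts were those without WT 3, where genotype and slide coincided. Leaving out 1 number and genotype in every tissue, added after seeing the data, gave 6 to 284 probes and 0 to 7 of the 10 genes for the mean and 9 to 290 probes for the interaction; without WT aorta 3, WT adipose tissue and aorta differed in 0 of the 10 genes. Sign changes were confined to differences that had not passed. With the slide as a block, and within slide 2, liver Per2 was -0.34, Nr1d1 0.21 and Nr1d2 -0.17, and the mean of Nr1d1 was 0.18. Leaving out 1 library, Nr1d1 ran from -0.20 to 0.36 in adipose tissue and -0.050 to 0.18 in aorta, Nr1d2 from -0.040 to 0.14 in liver and -0.13 to 0.11 in kidney, and the mean of Nr1d1 from -0.17 to 0.027. The other probes gave -0.0016 for Nr1d2 in liver, -0.019 and -0.053 for the dim Per2 probe in kidney and aorta, and -0.060 for Nr1d1 in aorta. Nr1d1 in aorta was -0.11 without both libraries numbered 3, and the mean of Hlf 0.0077 without aortas. The cause of these changes was not tested. Dim probes near the floor limit what can be seen of Hlf, Per3, Arntl and Ciart.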

Other observations

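Among the 10 genes, Tef tracked the others most closely. Its Pearson r with the mean of the other 9, over 24 arrays after centring each gene on its tissue mean, was 0.92. Per2 and Dbp each had 0.88, Per1 0.86, Ciart 0.83, Nr1d2 0.70, Per3 0.68 and Usp2 0.53, while Hlf had -0.00 and Nr1d1 -0.23. These values share the libraries and the genotype difference and are given as a description. After centring on each group mean, which removes that difference, Tef had 0.87, Ciart 0.85, Per2 0.82, Dbp 0.78, Nr1d2 0.73, Per1 0.65 and Nr1d1 -0.33.

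Outside the list, the genes whose pattern was most like the mean of the 10 were sought among 7369 genes above the median probe in every tissue, over the same 24 arrays. The highest r values were those of Dcun1d3, a factor of cullin neddylation (0.91), Eif2b5, a subunit of the translation factor eIF2B (0.90), and Fkbp5, a glucocorticoid-induced chaperone of the glucocorticoid receptor (0.89). Slc27a1, a fatty acid transporter (0.85), Zfp346 (0.84), Brms1 (0.83), Nepro (0.83) and Ripk4 (0.83) followed. At the other end stood Arntl (-0.88), Nqo2 (-0.87), Glo1 itself (-0.83), Tlcd2 (-0.83) and Wdr1 (-0.82). Of these 13 genes, Slc27a1 was called higher in liver (0.56, adjusted p = 0.041 in limma), and Glo1 lower in liver (-0.88, adjusted p = 0.0031) and kidney (-0.88, adjusted p = 0.022). The mean of the 10 carries the genotype difference, so the ranking favours genes that differ by genotype, the targeted Glo1 among them. These calls are therefore a description, beside 0.658% of all probes called in liver and 0.381% in kidney.

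Fkbp5 shared the spread of the WT libraries. It read 10.10, 10.40 and 10.20 in Glo1+/- against 8.80, 8.83 and 10.03 in WT livers (1.01 ± 0.24, adjusted p = 0.081 in limma). In adipose tissue it read 9.91, 10.34 and 10.13 in Glo1+/- against 8.75, 8.86 and 9.88 in WT libraries (0.96 ± 0.28, adjusted p = 0.332). WT library 3 lay near the Glo1+/- libraries in both tissues. Sgk1, another glucocorticoid-induced gene, chosen after its values were seen, did not share this spread: in liver it read 10.67, 11.03 and 10.85 in Glo1+/- against 11.22, 11.43 and 11.47 in WT libraries (-0.52 ± 0.12, adjusted p = 0.066).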
